A study of Mus musculus with 6 samples.

Results

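The autophagy machinery and its cargo receptors were examined as 1 set of 36 genes chosen by name for their known roles. Of these, 35 were measured by a probe set with a single gene symbol and 1, the receptor gene Optn, was not analysed here, out of 19937 genes measured in all. Where a gene had more than 1 probe set, the brightest stood for it. No filter on low values was applied, so all 35 entered the test. The RNA came from pro-B cells of strain C57/BL6 transformed with vAbl, an oncogenic kinase that immortalises B cell precursors at an early stage. All samples carried the genotype Foxo1f/f; ERCre, that is, both copies of Foxo1 floxed and an oestrogen receptor-Cre fusion that is switched on by tamoxifen. Foxo1 encodes a forkhead factor needed by early B cells. Per the labels the cells were split, and 3 untreated samples were compared with 3 samples kept in 1 µM tamoxifen over 2 days to delete Foxo1. The labels do not say whether the 3 samples of a group are separate cultures. The p-values therefore reflect the spread of these samples alone, which may be technical. A control given tamoxifen but keeping Foxo1 was not analysed here, so effects of the drug or of Cre cannot be told apart from loss of Foxo1.

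Autophagy encloses cytoplasm in a double membrane and delivers it to lysosomes. A kinase complex built on ULK1 starts the process, a lipid kinase complex built on PIK3C3 and Beclin 1 marks the membrane, and ATG9 and ATG2 proteins supply lipid. A ubiquitin-like conjugation system then attaches proteins of the LC3 and GABARAP family to the growing membrane, where receptors such as p62 tether cargo. FOXO factors are known to raise transcription of several of these genes in muscle and liver, and autophagy supports the survival of several B lineage cells.

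Intensities on a linear scale had medians of 100.9 to 109.1 per array. Precision is limited by having 3 arrays a group. Fold changes are on the log2(value + 16) scale after quantile normalisation, which understates the change of dim genes, and levels of different genes are not compared. Foxo1 was lower in each tamoxifen sample, at 116, 151 and 134 in samples 1, 2 and 3 against 806, 624 and 512 untreated (log2 fold change -2.13 ± 0.15 SE, limma adjusted p = 0.0178). With any 1 array left out the limma adjusted p ran from 0.0276 to 0.156, and it passed only without untreated sample 1. The 7 measured of 8 B cell markers lay above the upper quartile of every array. Of the T cell markers 5 of 6 measured, and of the myeloid markers 7 of 7, lay below the median of every array. The summed intensity of the B cell markers was 12031 to 14112 in untreated samples and 14217 to 15498 after tamoxifen. Of the 7, 6 had an unadjusted limma p under 0.05 (85.7%, against 5.15% of all genes). Of these 5 were upward (2.96% of all genes), and Ebf1 was downward (log2 fold change -0.51). For T cell markers the sum was 282 to 365 and 279 to 346, and for myeloid markers 421 to 472 and 418 to 427. The part of these differences in the results below was not tested.

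By limma 0 of the 35 autophagy genes passed an adjusted p of 0.05, and the lowest of any was 0.340. The adjustment (Benjamini-Hochberg) covered the 34760 probe sets, of which 0.0575% passed. At an unadjusted p under 0.05 there were 4, all with positive values, or 11.4% of the 35. The same share over all 19937 genes was 5.15%, with 2.96% in the positive direction. These 4 were Uvrag, which steers the lipid kinase complex toward late membranes, Gabarap, a ubiquitin-like protein of the autophagosome, Nbr1, a cargo receptor, and Pik3c3, the lipid kinase itself. Their log2 fold changes were 0.34, 0.31, 0.20 and 0.15. With only probe sets of at least median brightness fitted, 3 of 30 autophagy genes had an unadjusted limma p under 0.05. The share of all genes in that fit was 6.66%. Positive values were seen for 27 of the 35, or 77.1%, against 44.5% of all genes. Their median log2 fold change was 0.069, against -0.010 over all genes.

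The 95% intervals are separate for each gene and not adjusted for their number. They reflect the spread of these samples alone and are not a joint bound on the set. Over the 35 genes the lowest bound was -0.60 (Gabarapl1) and the highest 0.61 (Gabarap), so among the brightest probe sets no interval reached below 0.661-fold or above 1.52-fold. The dimmer probe set assigned to Map1lc3b had a wider one, 0.332 to 1.56-fold. The median standard error was 0.090, close to the median of 0.083 over all genes.

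**Figure D1:**
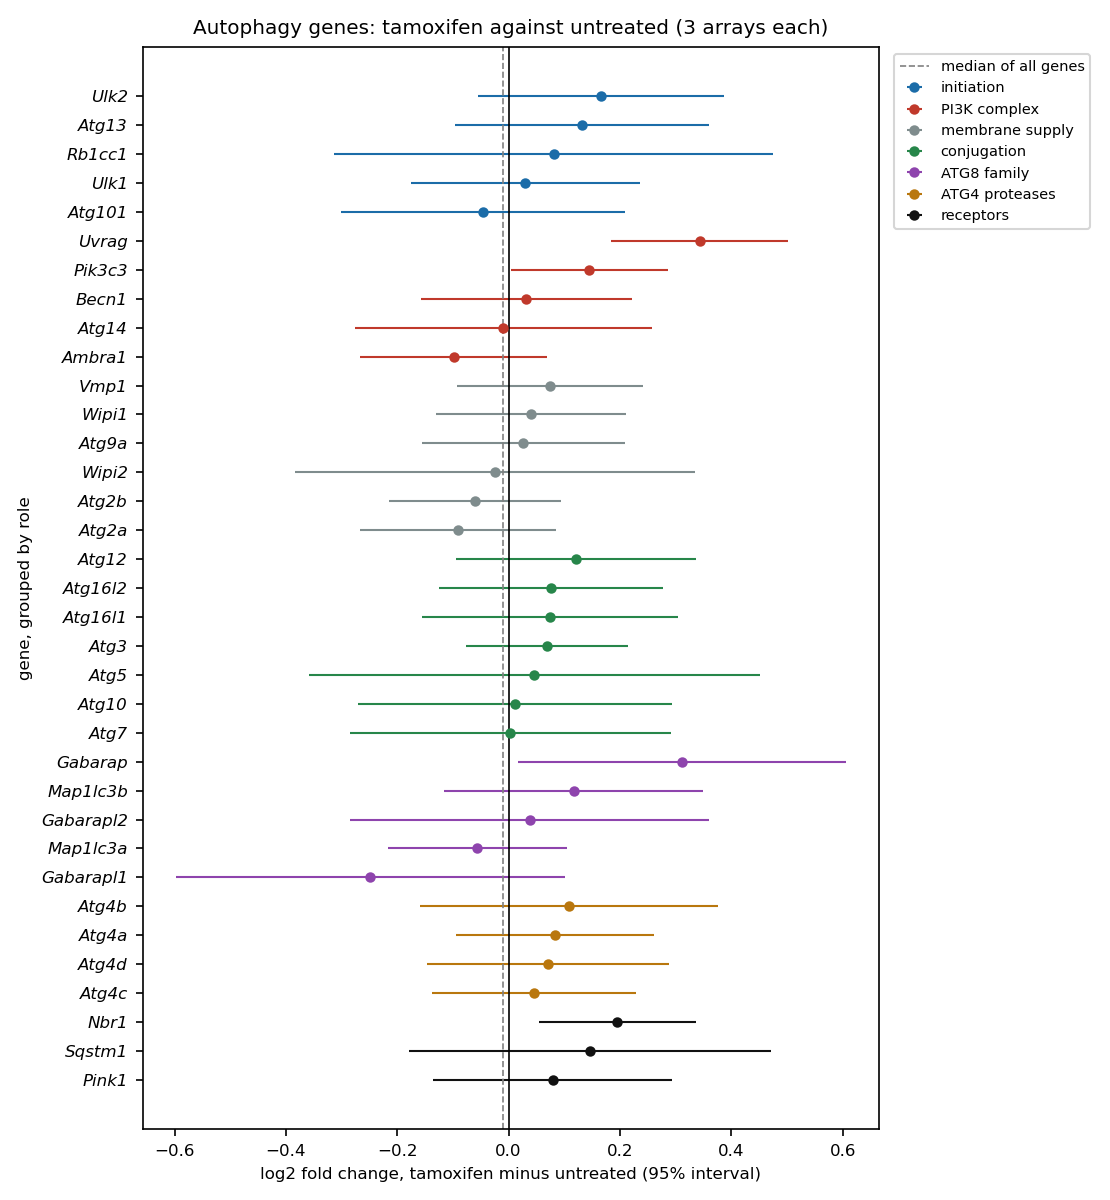
Log2 fold change of each of the 35 autophagy genes (tamoxifen minus untreated, 3 arrays each), grouped by role, with 95% limma intervals and a dashed line at the median of all genes (-0.010). The intervals of Uvrag, Gabarap, Nbr1 and Pik3c3 lie above 0, and those of the other 31 cross it.

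**Figure D2:**
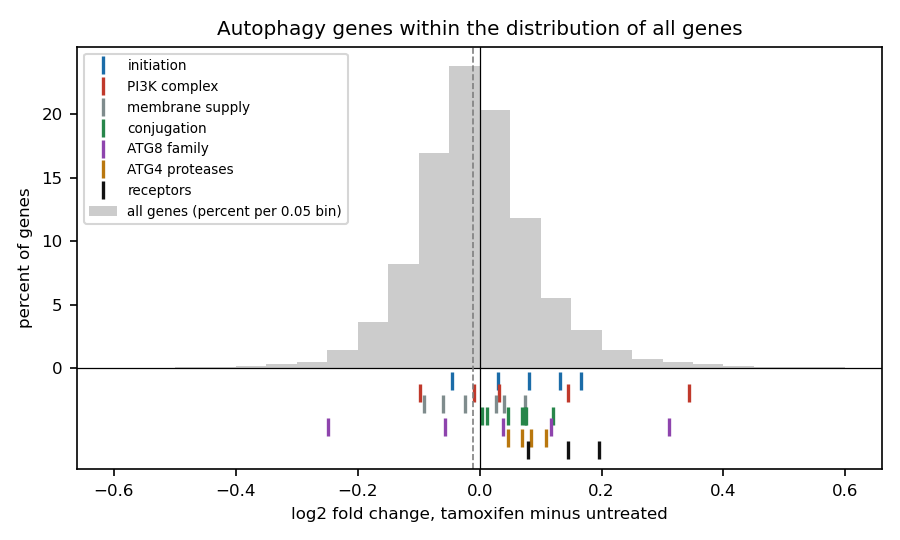
Bars give the percent of all 19937 genes per bin of log2 fold change between -0.6 and 0.6, and ticks below the axis mark the 35 autophagy genes by role. Most ticks lie to the right of the dashed median of all genes, and Gabarapl1 (-0.25) and Uvrag (0.34) are at the ends.

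The shared shift was about as large as the spread between arrays. With each gene centred on its mean over the 6 arrays, the median of the 35 genes on arrays 1, 2 and 3 was 0.039, -0.039 and -0.099 without treatment. On tamoxifen arrays 1, 2 and 3 it was 0.090, -0.015 and 0.022. The groups overlapped, since untreated sample 1 lay above tamoxifen samples 2 and 3. The standard deviation of these medians within a group was 0.062. The count of positive genes fell from 27 to 20 of 35 (57.1%, against 47.1% of all genes) without untreated sample 3, and to 23 of 35 (65.7%, against 47.6%) without tamoxifen sample 1. The median log2 fold change in these fits was 0.038 and 0.036.

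**Figure D3:**
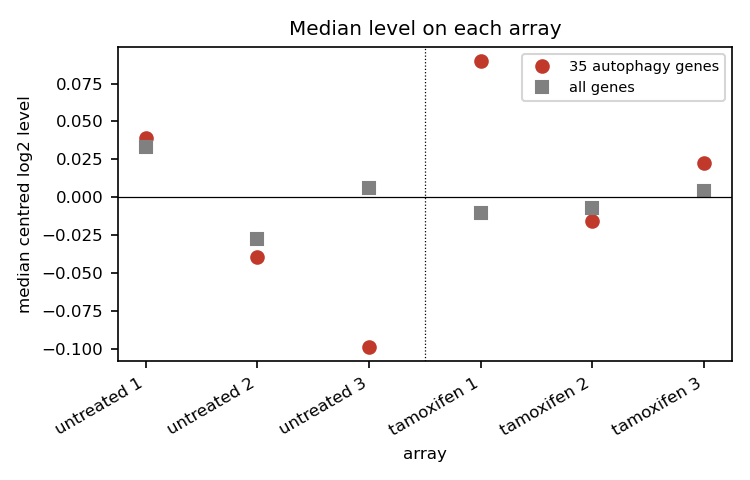
Median over the 35 autophagy genes (circles) and over all genes (squares) of the normalised log2 level on each array, each gene centred on its mean over the 6 arrays. Tamoxifen sample 1 is highest (0.090) and untreated sample 3 lowest (-0.099) for the autophagy genes, and the groups overlap.

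Promoter sequence was examined because the treatment was meant to delete Foxo1, which encodes a DNA-binding factor. The level of that protein was not tested here. RefSeq promoters (build GRCm38.p6, 250 bases before to 50 after an annotated start) matched 29 of the 35 genes in 34 windows. The other 6, Pik3c3, Becn1, Atg12, Map1lc3a, Atg16l1 and Rb1cc1, were not searched. Of these, Pik3c3, Becn1 and Atg12 are among the genes linked to FOXO factors below. The FOXO core letters GTAAACA, searched on both strands, were in 0 of the 34 windows, against 3.65% of all 32851 promoters. The related letters ATAAACA, which differ from that core in the first letter alone and were added after the sequences had been read, were in 4 of 34, or 11.8%, against 4.60% of all. Those 4 were the promoters of Ambra1, Atg4a, Gabarapl1 and Wipi2. The E-box CACGTG, bound by TFEB among others, was in 4 of 34 (11.8%, against 7.15% of all), namely in Atg3, Atg5, Atg7 and Atg14. A match of letters is not evidence of binding, and their absence says only that they are not in these windows. The 250 bases before the start are shown for Uvrag and Gabarap, which had the 2 highest fold changes, and for Gabarapl1, which had the lowest, with ATAAACA in capitals. They lie at chr7:99141145-99141394 (minus strand), chr11:69991120-69991369 (plus strand) and chr6:129532942-129533191 (plus strand).
Uvrag: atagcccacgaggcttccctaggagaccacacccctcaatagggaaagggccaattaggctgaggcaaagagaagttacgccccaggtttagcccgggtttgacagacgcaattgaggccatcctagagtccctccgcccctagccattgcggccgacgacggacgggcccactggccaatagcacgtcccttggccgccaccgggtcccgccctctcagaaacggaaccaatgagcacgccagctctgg
Gabarap: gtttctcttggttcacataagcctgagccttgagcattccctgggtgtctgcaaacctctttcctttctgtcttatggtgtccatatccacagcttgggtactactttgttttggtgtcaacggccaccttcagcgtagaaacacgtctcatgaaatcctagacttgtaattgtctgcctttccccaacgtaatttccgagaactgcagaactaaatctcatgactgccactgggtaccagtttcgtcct
Gabarapl1: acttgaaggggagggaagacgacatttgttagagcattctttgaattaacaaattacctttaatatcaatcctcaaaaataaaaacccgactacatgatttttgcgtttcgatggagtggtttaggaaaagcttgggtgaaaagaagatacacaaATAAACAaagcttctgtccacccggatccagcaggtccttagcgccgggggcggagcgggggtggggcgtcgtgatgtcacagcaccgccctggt
Of these 3 only Gabarapl1 holds any of the letters searched, with ATAAACA beginning 95 bases before the start.

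In the initiation complex 4 of 5 genes were positive, with a median of 0.081, and 0 passed the test. Ulk2, a kinase that acts alongside Ulk1, measured 215, 238 and 239 in untreated and 249, 253 and 291 in tamoxifen samples. All 3 tamoxifen values were above the untreated ones as deposited, but the groups overlapped after normalisation, and the log2 fold change was 0.17 ± 0.09 (SE), at a limma adjusted p = 0.999. Ulk1, the kinase best known for starting autophagy, measured 167, 144 and 160.2 untreated and 145, 161 and 175 after tamoxifen (log2 fold change 0.030 ± 0.085 SE). Its groups overlapped. The scaffold genes Atg13 (0.13), Rb1cc1 (0.081) and Atg101 (-0.046) also had intervals across 0. Rb1cc1, also called FIP200, was low in sample 1 of each group, at 374 and 443, where the other 4 samples lay between 475 and 548.

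The lipid kinase complex held 2 of the 4 genes with an unadjusted p under 0.05. Uvrag measured 1272, 1326 and 1288 before and 1808, 1589 and 1573 after tamoxifen. Each tamoxifen value was above each untreated value, and the means were 1295 ± 28.0 and 1657 ± 131 (SD, n = 3). The log2 fold change was 0.34 ± 0.07 (SE), 1.27-fold with a 95% interval of 1.14 to 1.42, and the limma adjusted p was 0.340. Over the alternative fits Uvrag ran from 0.31 to 0.38, and its limma adjusted p ran from 0.104 to 0.907.

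Pik3c3, the catalytic subunit, measured 830.0, 859.6 and 779 untreated and 1016, 862 and 891 after tamoxifen. The groups did not overlap, but untreated sample 2 and tamoxifen sample 2 differed by little. The log2 fold change was 0.15 ± 0.06 (SE) with a limma adjusted p = 0.954. Becn1, the regulatory subunit Beclin 1, measured 803, 737 and 624 against 796, 688 and 748, with overlapping groups and a log2 fold change of 0.032 ± 0.079 (SE). Atg14, the subunit that directs the complex to forming autophagosomes in place of Uvrag, measured 64.5, 57.1 and 58.5 against 65.1, 50.2 and 61.8. It had a log2 fold change of -0.0093 ± 0.11 (SE) and was below the array median in every sample. Ambra1, a Beclin 1 partner, measured 279.9, 328 and 287 against 281, 285 and 277, and its log2 fold change of -0.098 became -0.054 without untreated sample 2.

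The lipid supply and membrane genes were evenly divided, with 3 of 6 positive and a median of 0.0010. Atg2a, a lipid transfer protein, had the lowest value of the group at -0.091 ± 0.073 (SE). It measured 147, 144 and 167 untreated and 142, 145 and 139.6 after tamoxifen, with overlapping groups. The paralog Atg2b had a log2 fold change of -0.060, and its other probe set -0.0051. The scramblase gene Atg9a (0.027), the lipid-binding Wipi1 (0.040) and Wipi2 (-0.025), and Vmp1 (0.074), an endoplasmic reticulum scramblase, had intervals across 0.

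All 7 conjugation genes had positive values, from 0.0031 for Atg7 to 0.12 for Atg12, with a median of 0.069. None had an unadjusted p under 0.05. Atg3, the enzyme that passes LC3 proteins to lipid, measured 1129, 1124 and 1033 untreated and 1296, 1119 and 1069.9 after tamoxifen. Its deposited values overlapped, and only after normalisation were the groups apart, with a log2 fold change of 0.069 ± 0.060 (SE). Across the 35 genes 4 had groups apart after normalisation (Uvrag, Nbr1, Pik3c3 and Atg3), or 11.4%, against 11.2% of all genes. All 4 were higher after tamoxifen, and 5.56% of all genes were apart in that direction.

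Atg12, the ubiquitin-like partner of Atg5, measured 174, 199.9 and 162 against 184, 208 and 193 (log2 fold change 0.12 ± 0.09 SE) with overlapping groups. Atg5 itself measured 251, 234 and 205 against 330.3, 196 and 216, so that tamoxifen sample 1 stood above the other 5 samples. Its log2 fold change of 0.046 ± 0.169 (SE) became -0.14 without tamoxifen sample 1. Atg16l1 (0.074), which positions the conjugation enzyme on the membrane, its paralog Atg16l2 (0.076), and Atg10 (0.011), which joins Atg12 to Atg5, completed the group. Atg7, the activating enzyme, was 279 in untreated sample 1 and between 199.6 and 239 in the other 5.

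The ubiquitin-like LC3 and GABARAP genes spread over the widest range of any role, from -0.25 to 0.31. Gabarap measured 1561, 1286 and 1097 in untreated and 1936, 1437 and 1553 in tamoxifen samples. The groups overlapped, because untreated sample 1 was above tamoxifen sample 2 after normalisation, and above tamoxifen samples 2 and 3 as deposited. The means were 1314 ± 234 and 1642 ± 261 (SD, n = 3), and the log2 fold change was 0.31 ± 0.12 (SE), at a limma adjusted p = 0.945. It ran from 0.23 without tamoxifen sample 1 to 0.42 without untreated sample 1.

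Gabarapl1, a paralog known as a FOXO target in muscle, was the lowest of the 35. It measured 214, 192 and 151 untreated and 176, 138 and 146 after tamoxifen, with overlapping groups. The means were 185 ± 31.8 and 153 ± 20.1 (SD, n = 3), and the log2 fold change was -0.25 ± 0.15 (SE), at a limma adjusted p = 0.999. It ran from -0.39 without untreated sample 3 to -0.14 without untreated sample 1. The interval of 0.661 to 1.07-fold includes 1, that is, no change.

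Map1lc3b, the most used LC3 marker, measured 827, 678 and 609 untreated and 846, 719 and 751 after tamoxifen (log2 fold change 0.12 ± 0.10 SE) with overlapping groups. A dimmer probe set assigned to the same gene read 184, 196 and 202 against 261, 173 and 53.8, with tamoxifen sample 3 far below the rest. Averaging both probe sets turned the value of Map1lc3b to -0.18. Genome positions of probe sets were not available here, so whether any of them reads related sequence elsewhere was not tested. Gabarapl2 measured 427, 344 and 287 against 429, 339 and 328, with a log2 fold change of 0.038, and 0.084 for a dimmer probe set. Map1lc3a had a log2 fold change of -0.056. In Gabarap, Gabarapl1, Gabarapl2 and Map1lc3b sample 1 was the highest of each group.

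The proteases that trim and release these proteins had 4 of 4 positive values between 0.046 and 0.11. Atg4b, the main protease of mammalian cells, measured 111, 109 and 85.9 untreated and 108, 112 and 106 after tamoxifen, with a log2 fold change of 0.11 ± 0.11 (SE) that rests on untreated sample 3 and was -0.012 without it. Atg4a (0.084) disagreed in sign with the other probe set assigned to it (-0.065). Atg4d had 0.070 on the same scale. Atg4c (0.046) was below the lower quartile of every array, at 28.3 to 38.2, so a change in it would be hard to see.

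The receptor group had 3 measured genes, the cargo receptors Nbr1 and Sqstm1 and the kinase gene Pink1. All were positive, with a median of 0.15, and Nbr1 had groups apart. Nbr1 measured 271, 300.2 and 269.8 in untreated and 341, 321 and 322 in tamoxifen samples, with means of 280.4 ± 17.1 and 328 ± 11.1 (SD, n = 3). The log2 fold change was 0.20 ± 0.06 (SE), 1.15-fold with a 95% interval of 1.04 to 1.26, and the limma adjusted p was 0.728. Sqstm1, which encodes the receptor p62, measured 517, 398 and 342 against 547, 423 and 431. Its groups overlapped, with untreated sample 1 above tamoxifen samples 2 and 3. The log2 fold change was 0.15 ± 0.14 (SE), and it ran from 0.057 without untreated sample 3 to 0.28 without untreated sample 1. Pink1, a kinase that flags damaged mitochondria, measured 109, 113 and 93.9 against 110.0, 110.2 and 110.8, a log2 fold change of 0.079.

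**Figure D4:**
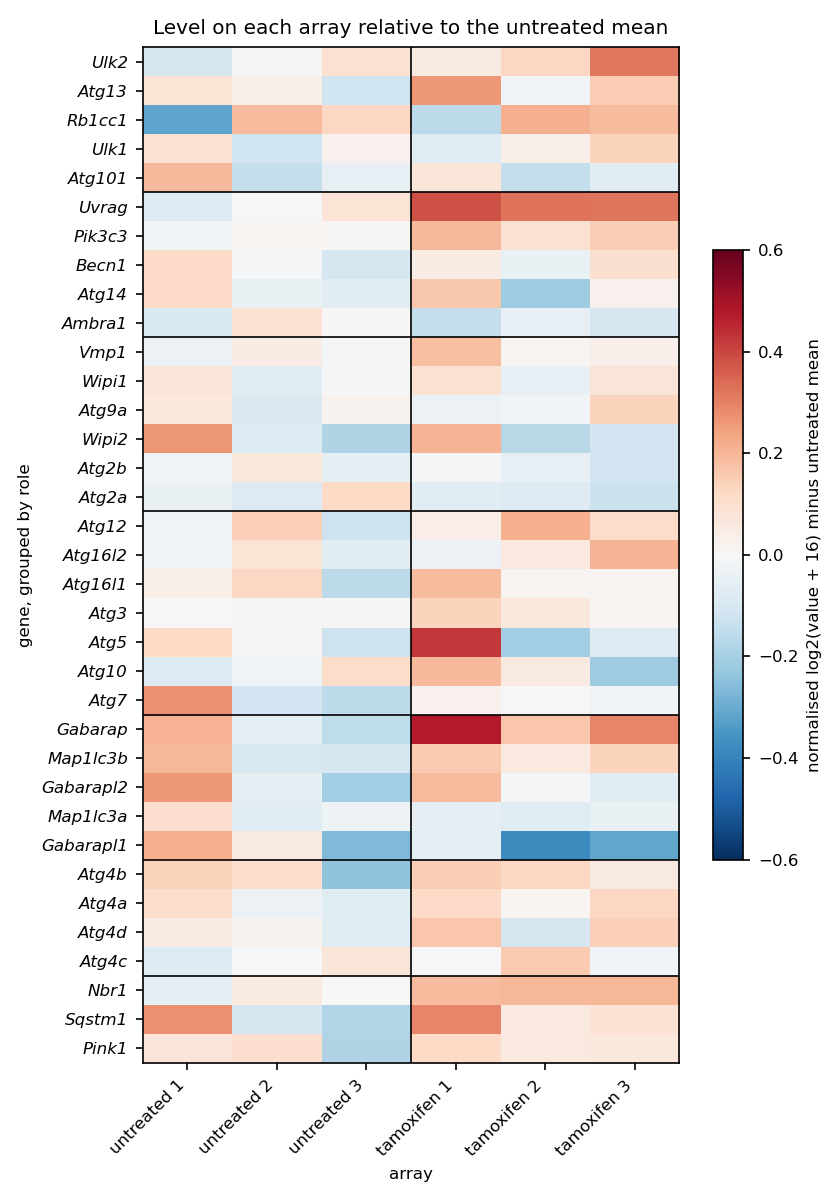
Normalised log2 level of each of the 35 genes on each array, minus the mean of the untreated samples, with roles divided by lines and the scale limited to ±0.6. Uvrag and Nbr1 are higher on all 3 tamoxifen arrays than on any untreated array. Gabarap and Sqstm1 are also above the untreated mean on all 3 tamoxifen arrays. They and Gabarapl2 are high in untreated sample 1 as well as in tamoxifen sample 1.

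**Figure D5:**
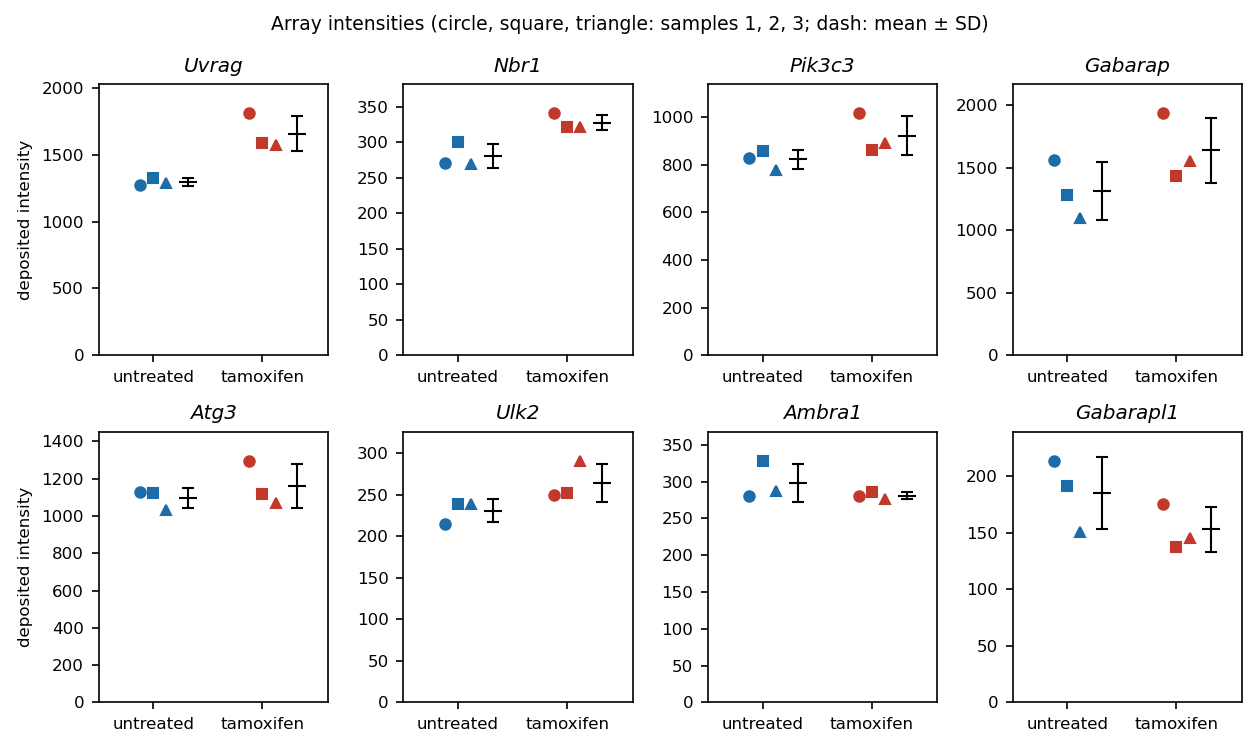
Deposited intensity of 8 autophagy genes on each of the 6 arrays, with the mean ± SD of 3 samples beside each group. The groups are apart for Uvrag, Nbr1, Pik3c3 and Ulk2 and overlap for Gabarap, Atg3, Ambra1 and Gabarapl1.

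Genes that earlier work on other tissues tied to FOXO factors were considered together. The list was chosen with earlier results of these data known, so its shares are a description and not a test. Of 12 such genes, 10 of them among the 35, 9 were positive (against 44.5% of all genes), and 0 passed limma, with 2 at an unadjusted p under 0.05 (Pik3c3 and Bnip3; 16.7%, against 5.15%). The median log2 fold change was 0.039, and it ran from 0.016 without untreated sample 3 to 0.098 without untreated sample 1. The 10 were Map1lc3b, Gabarapl1, Atg4b, Atg5, Atg12, Atg14, Becn1, Pik3c3, Ulk1 and Ulk2, and 8 of them were positive with a median of 0.077. Negative values were seen for Gabarapl1 and Atg14 only, and the 95% intervals of the 10 ran from 0.661 to 1.37-fold. The remaining pair encode mitochondrial receptors. Bnip3 measured 1017, 1407 and 999 untreated and 724, 520.1 and 460.0 after tamoxifen, with groups apart and a log2 fold change of -1.01 ± 0.17 (SE). Its limma adjusted p was 0.227. This ran from 0.201 to 0.774 with 1 array left out, and was 0.608 with a common median and 0.0426 where only the brightest probe set of each gene was tested. Its paralog Bnip3l measured 1561, 2465 and 1989 against 2093, 1969 and 1888 (log2 fold change 0.0073 ± 0.165 SE). Dimmer probe sets assigned to these genes had log2 fold changes of -0.91 (Bnip3, groups apart) and -0.19 (Bnip3l, groups overlapping).

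Another 30 genes of the pathway, covering regulators, membrane fusion and further receptors, were taken as a second list, which includes Bnip3 and Bnip3l. It too was chosen with earlier results of these data known, and its shares are a description. Of the 29 measured, 19 were positive (65.5%, against 44.5% of all genes), the median log2 fold change was 0.020, and 0 passed limma over all probe sets. At an unadjusted p under 0.05 there were 3, or 10.3%, against 5.15% of all genes, namely Bnip3, Snap29 and Tecpr1. Snap29, a SNARE protein that fuses autophagosomes with lysosomes, measured 657, 668 and 555 untreated and 973, 785 and 776 after tamoxifen. Its groups were apart, and the log2 fold change was 0.40 ± 0.08 (SE), at a limma adjusted p = 0.346. Tecpr1, which tethers autophagosomes to lysosomes, measured 143.8, 144.5 and 144.2 against 165, 180.5 and 168 (log2 fold change 0.23 ± 0.06 SE, limma adjusted p = 0.625). Groups were apart for 7 of the 29, 5 upward and 2 downward, or 24.1%, against 11.2% of all genes (5.56% upward).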

How the data were processed

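The deposited values are linear intensities, 1 per probe set and array, already summarised by the authors. The sources used here do not give how. Per the labels' protocols, 200 ng of total RNA was labelled with a NuGen kit. The values were taken as log2(value + 16) and quantile normalised, and the test was limma 3.58.1 in R 4.3.3 (lmFit, then eBayes, two-sided), adjusted by Benjamini-Hochberg across the 34760 probe sets. A platform table gave 21640 probe sets 1 gene symbol, 1321 several, and did not list 11799. Intervals are 95% limma intervals. The limma step was tested on simulated arrays with known changes, and the code for groups apart on constructed rows. Normalisation, set medians and the promoter search were not tested in that way. Of the 35 genes, those with an unadjusted p under 0.05, with groups apart, among the 3 highest or 3 lowest, or linked to FOXO were given with the value in every sample, and of the other autophagy genes those with an unadjusted p under 0.05. The genes and lists were chosen with earlier results of these data known. Alternatives covered the replicate number as a block, each array left out, other normalisations, a filter on dim probe sets, variance models, pseudocounts of 1 and 64, and other ways to represent a gene. Figures used matplotlib 3.10.9.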

Additional observations from a re-analysis of the deposited data

How the results depend on the processing

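Under each of the 17 alternatives 0 of the 35 genes passed limma, and the lowest adjusted p was 0.104 (Uvrag). At an unadjusted p under 0.05 there were 2 to 5, against 4 in the main fit. The share over all genes in these alternatives was 3.49% to 6.74%. Of the 35 genes 19 kept their sign throughout, and 33 of 590 values changed sign. With 1 array left out, 2 to 5 genes had an unadjusted p under 0.05 (2 to 5 upward; 3.49% to 5.73% of all genes), 4 to 10 had groups apart (17.6% to 24.2% of all genes), 20 to 28 were positive (39.2% to 51.9% of all genes), and the median ran from 0.036 to 0.092. The other autophagy genes then had medians of 0.021 to 0.056. Their median was 0.048 with a common median, 0.033 with no further normalization and 0.044 with array weights. With no further normalization 2 genes had an unadjusted p under 0.05, 2 upward, against 4.11% of all genes in either direction. Foxo1 ran from -2.26 to -1.97 with 1 array left out and passed only without untreated sample 1 (limma adjusted p from 0.0276 to 0.156). With the replicate number as a block Foxo1 stayed at -2.13 with a limma adjusted p of 0.0936, 5 of the 35 genes reached an unadjusted p below 0.05 (6.72% of all genes), with Ulk2 (upward) and Gabarapl1 (downward) gained and Pik3c3 lost, and limma called 0 probe sets (2525 below 0.05 unadjusted). Deviations from the group means had correlations of 0.256, 0.0547 and 0.302 for same-numbered samples. Those of differently numbered samples ran from -0.420 to 0.248. The labels do not give the numbers as pairs, and the main fit did not use them. Whether they mark pairs was not tested.

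Signs changed with 1 array left out, with ranges of -0.078 to 0.13 (Atg10), -0.12 to 0.050 (Atg101), -0.096 to 0.093 (Atg14), -0.0041 to 0.13 (Atg16l1), -0.012 to 0.18 (Atg4b), -0.0091 to 0.082 (Atg4c), -0.14 to 0.17 (Atg5) and -0.078 to 0.14 (Atg7). The others ran from -0.026 to 0.058 (Atg9a), -0.019 to 0.090 (Becn1), -0.18 to 0.16 (Bnip3l), -0.063 to 0.17 (Gabarapl2), -0.010 to 0.13 (Pink1), -0.076 to 0.20 (Rb1cc1), -0.028 to 0.080 (Ulk1) and -0.14 to 0.11 (Wipi2). Cyclic loess turned Atg14 (0.0021) and Bnip3l (-0.0084), and a common median turned Wipi2 (0.012). Array weights turned Atg5 (-0.040), Atg10 (-0.055) and Bnip3l (-0.023). Averaging probe sets turned Map1lc3b (-0.18) and Bnip3l (-0.093), and Bnip3 passed at -0.96 (adjusted p = 0.0406). The causes were not tested. A change in genes near background, such as Atg4c, is limited by signal.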

Other observations

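After normalisation sample 1 was the highest of its group in both groups for 14 of the 35 autophagy genes, or 40.0%, against 22.0% of all genes. These were Atg13, Atg101, Atg14, Wipi1, Wipi2, Atg5, Atg7, Map1lc3b, Gabarap, Gabarapl1, Gabarapl2, Atg4b, Atg4d and Sqstm1. Tamoxifen sample 1 was the highest of its group for 23 of the 35 (65.7%, against 37.2% of all genes), and untreated sample 1 for 19 (54.3%, against 46.2%). Sample 1 was the lowest of both groups for 4 of the 35 (11.4%, against 13.0% of all genes), namely Ulk2, Rb1cc1, Ambra1 and Nbr1. This pattern was chosen after its values were seen.

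Ncoa4, the ferritin receptor of autophagy and outside the rule for named genes, had a brighter probe set at 0.26 ± 0.17 (SE) with overlapping groups. A dimmer one read 851, 973 and 834 untreated and 1209.9, 1006 and 979 after tamoxifen with groups apart (log2 fold change 0.24 ± 0.08 SE, limma adjusted p = 0.760). It was added after its values were seen.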
